A study of Mus musculus with 26 samples.

Results

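Transcripts of 9 nuclear receptors and of 1 retinoic acid carrier protein were followed across 26 lines from mouse skin, with 1 Affymetrix M430 2.0 array per line. The 10 genes were Nr2f1, Nr2f2, Vdr, Rara, Rarb, Rarg, Rxra, Nr3c1, Ppard and Crabp2, out of 18193 genes with a probe set assigned to a single gene. Each gene was read from its single-gene probe set with the highest mean over the 26 arrays. Nr2f1 was picked by its log2 values, for its rise in carcinoma lines. Those values are given below as a description, with no test against keratinocytes.

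The lines were grown in serum and harvested in log phase. The keratinocyte group held 2 immortalised lines, C5N and NK, of which NK came from a p53 null mouse. The papilloma group was 1 line, P6, from a benign tumour. Squamous cell carcinoma lines without spindle pathology numbered 12: PDV, PDVC57, SN161, E4, B9, B9ras, B9rassmad, MSCP1, MSCP5, MSC7A, MSC11B and MSC12. Of these, SN161 came from a tumour of a Spretus/NIH cross, and MSCP1, MSCP5, MSC7A, MSC11B and MSC12 from tumours of Spretus/CBA crosses. Spindle carcinoma lines, which have an elongated and fibroblast-like shape, numbered 7: A5, H11, MSN2, CarB, CarC, D3 and D3DP. By their names, B9ras and B9rassmad were Ras and Smad derivatives of B9. Beyond the line names, the labels gave no further strain, genotype, animal age or treatment for these lines. Another 4 lines stood in no group. The spindle flag was not stated for 2945CA and MSCb1 (the latter from a Spretus/CBA cross), the label and flag of B9Smad conflicted, and so did those of 1 keratinocyte line. The labels name no second culture of any line, so the spread measured here lies between lines, and lines with a shared name root (PDV and PDVC57, D3 and D3DP, CarB and CarC, the B9 lines) were counted as separate.

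Nuclear receptors are transcription factors that bind DNA and are switched by small fat-soluble ligands. Retinoic acid, made from vitamin A by dehydrogenases, is carried to the nucleus by Crabp2 and bound there by the retinoic acid receptors Rara, Rarb and Rarg, each of which pairs with a retinoid X receptor such as Rxra. Vdr binds the active form of vitamin D, Nr3c1 is the glucocorticoid receptor, and Ppard senses fatty acids. Nr2f1 and Nr2f2 (COUP-TFI and COUP-TFII) are orphan receptors of developing and mesenchymal tissues. In epidermis, retinoids, vitamin D and glucocorticoids all act on keratinocyte growth and differentiation, and Rarg with Rxra is the usual retinoid receptor pair there.

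Rarb is a textbook target of its own pathway, since its promoter carries a direct repeat bound by retinoic acid receptors. The window around its annotated start is shown because Rarb was the retinoic acid receptor whose level differed most between lines. It lies at chr14:16575427-16575726 on the minus strand of GRCm38.p6 and is printed from RefSeq, 5′ to 3′, with the direct repeat in capitals.
Rarb: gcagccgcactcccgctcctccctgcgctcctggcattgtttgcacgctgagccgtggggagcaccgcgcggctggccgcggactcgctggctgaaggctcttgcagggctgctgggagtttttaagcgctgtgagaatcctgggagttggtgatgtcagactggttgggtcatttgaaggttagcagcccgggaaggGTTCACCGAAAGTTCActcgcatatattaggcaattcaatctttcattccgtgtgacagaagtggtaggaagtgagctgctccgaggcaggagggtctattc

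The repeat matched the letters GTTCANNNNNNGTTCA on the strand of the gene and began at position -52 from the annotated start. The same letters, on either strand, were found in 25 of 32851 promoter windows of 300 bases, or 0.0761%. Windows were matched for 8 of the 10 genes, 14 windows in all, for Nr2f1, Nr2f2, Vdr, Rara, Rarb, Rarg, Rxra and Ppard. Those windows were also searched on both strands for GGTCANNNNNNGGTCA, for GTTCANNNNGTTCA and GGTCANNNNGGTCA, and for GTTCANNGTTCA and GGTCANNGGTCA, and held none of them. These 5 patterns occurred in 33, 17, 15, 18 and 73 of the 32851 windows (0.100%, 0.0517%, 0.0457%, 0.0548% and 0.222%). A match describes letters in a window, and the arrays did not measure binding.

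Values are log2 RMA values, so a difference of 1 is a doubling on that scale. The median over all probe sets lay between 5.04 and 5.15 on the 26 arrays. A gene below it on an array is near background, where fold changes are compressed, and levels are not compared between genes, because probe sets differ in how strongly they bind. Cdh1 (E-cadherin, the adhesion protein of epithelial cells) split the 22 carcinoma lines into 11 lines with Cdh1 below the array median and 11 above it. The highest of the low lines was D3DP at 3.78 and the lowest of the others B9Smad at 8.49. Every spindle line was in the low set, and so were the non-spindle lines MSC7A, MSC11B and MSC12 and the line 2945CA. The mean of 7 keratinocyte markers was 12.17 to 12.21 in the keratinocyte lines, 4.30 to 12.77 in the non-spindle lines and 4.57 to 5.38 in the spindle lines. In the spindle lines Krt14, Cdh1 and Epcam were below the array median in every line. The mean of 8 mesenchymal markers was 5.80 to 5.96, 5.19 to 11.32 and 7.99 to 11.08 in those groups. Of the markers of other cell types, Tyr, Dct and Mlana (melanocytes), Ptprc (leukocytes) and Cdh5 (endothelium) were below the array median in every line of these groups, but others of those lists were not. Of 5 melanocyte markers, 1 to 2 were above it in a line, with a list mean of 4.54 to 4.55 in keratinocyte, 4.45 to 4.77 in non-spindle and 4.54 to 4.67 in spindle lines. Of 5 leukocyte markers, 2 to 4 were above it, with list means of 5.0 to 5.17, 4.96 to 6.19 and 5.01 to 5.34. Csf1r and Cd3e were above the median in every line of these groups, Cd68 reached 9.995 in SN161 and Lyz2 8.09 in MSC12. Of 4 endothelial markers, 0 to 2 were above it, with list means of 4.33 to 5.24, 4.11 to 4.81 and 4.08 to 4.24. The part of these markers in the results was not tested. In bulk RNA, a change in the share of cells that carry a transcript and a change in its level per cell cannot be told apart.

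**Figure D1:**
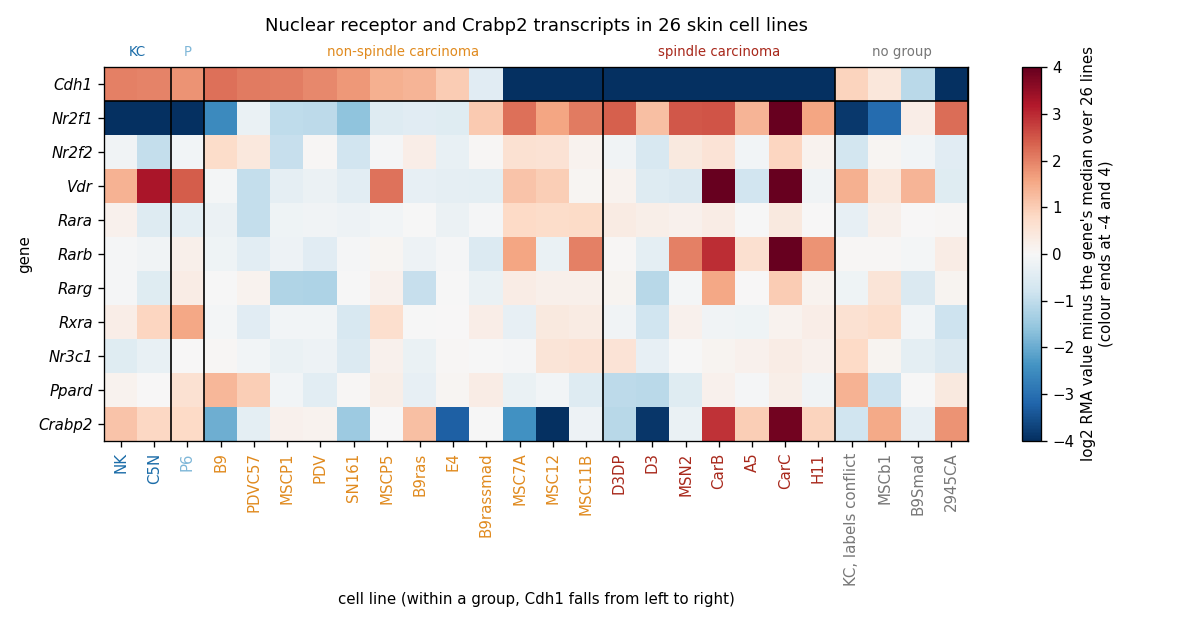
Heat map of the log2 RMA value of Cdh1 and of the 10 genes (rows) in each of the 26 lines (columns), as the difference from each gene's own median over the lines, with colours ending at -4 and 4; within a group, Cdh1 falls from left to right. KC is keratinocyte, P is papilloma, and the Nr2f1 row is darkest blue in C5N, NK and P6 and red in the lines where Cdh1 is blue.

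Nr2f1 had the widest range of the 10 genes. It was 3.68 in C5N and 3.51 in NK, and 3.79 in P6, all below the array median. The 12 non-spindle lines ran from 5.71 in B9 through a median of 7.78 to 10.44 in MSC7A. The 7 spindle lines ran from 9.46 in D3 through a median of 10.64 to 12.35 in CarC. No carcinoma line of either group came down to the keratinocyte or papilloma values. The group means were 3.59 ± 0.12 (SD, n = 2), 8.17 ± 1.49 (SD, n = 12) and 10.49 ± 0.99 (SD, n = 7). The mean of the non-spindle lines lay 4.57 (SE 0.95) above the keratinocyte mean, a ratio of 23.8 on the RMA scale, and that of the spindle lines 6.89 (SE 0.99) above it, a ratio of 119. Larger absolute differences from keratinocytes were found for 0.182% and 0.134% of the 12641 genes tested. Both are the values by which the gene was picked. The standard deviation of Nr2f1 over the 26 lines was 2.51, which 1.00% of the genes tested exceeded.

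Within the carcinoma lines, Nr2f1 was 2.32 higher (SE 0.59) in spindle than in non-spindle lines, a ratio of 4.99. In limma this had an unadjusted p = 0.00081 and a Benjamini-Hochberg adjusted p = 0.0828, so it missed the threshold of 0.05. The carcinoma values compared here are among those by which Nr2f1 was picked, so this p is only a description. The groups overlapped: MSC12 at 9.83, MSC11B at 10.33 and MSC7A at 10.44 lay within the spindle range, and B9rassmad at 9.30 lay just under it. Those 3 MSC lines are the non-spindle lines with Cdh1 below the array median. Leaving out MSC12, MSC11B or MSC7A alone brought the adjusted p to 0.0442, 0.025 and 0.0327. These 3 had the highest Nr2f1 of the non-spindle lines, so the lower p follows from which line was left out and supports nothing. The count of called genes among all tested then rose from 8 to 179, 471 and 183.

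By Cdh1 status the values did not overlap. Nr2f1 was 9.46 to 12.35 (median 10.44) in the 11 carcinoma lines with low Cdh1 and 5.16 to 9.30 (median 7.74) in the 11 with high Cdh1. It was 3.51 to 4.41 in the 3 keratinocyte lines and the papilloma line. The sets were drawn by a measured transcript on the same arrays, with these values known, so no test is given. The share of all genes that also separate these sets was not counted, so the separation is not shown to be particular to Nr2f1. The nearest lines across the gap were D3 at 9.46 and B9rassmad at 9.30. B9rassmad and B9Smad, which had the next lowest Cdh1 at 9.13 and 8.49, had the highest Nr2f1 of the Cdh1-positive lines at 9.30 and 8.53. Among the B9 lines Nr2f1 was 5.71 in B9, 7.80 in B9ras, 8.53 in B9Smad and 9.30 in B9rassmad. At the other end MSCb1, a carcinoma line with Cdh1 at 10.02, had 5.16, the lowest Nr2f1 of any carcinoma line.

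**Figure D2:**
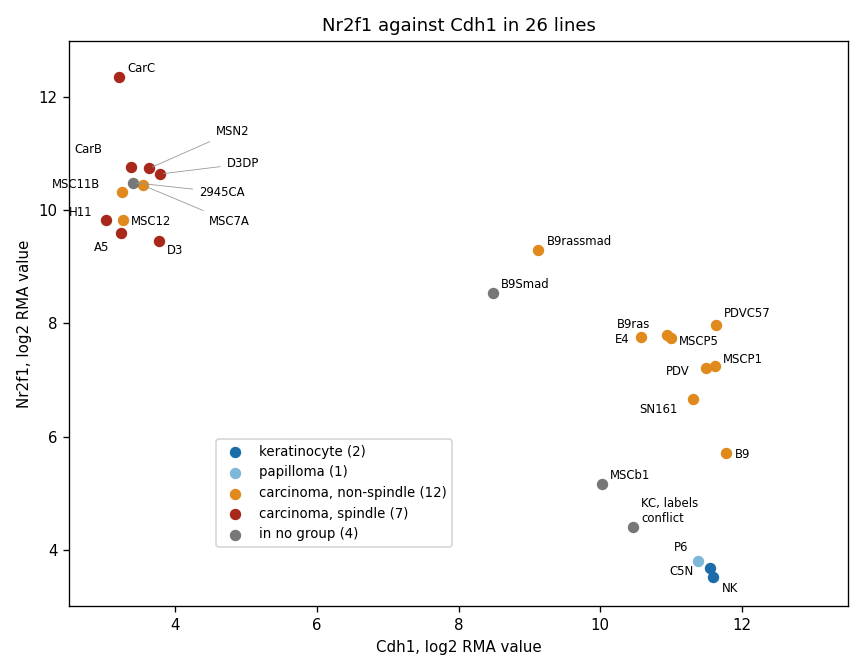
Scatter of Nr2f1 against Cdh1, both as log2 RMA values, with 1 point per line and colours for the groups; numbers in the key are lines, and KC is keratinocyte. The 11 carcinoma lines with Cdh1 of at most 3.78 have Nr2f1 of at least 9.46, while among lines with high Cdh1 it spans 3.51 to 9.30.

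The genes whose values followed Nr2f1 most closely over the 26 lines were A830082K12Rik, with Pearson r = 0.90, the caveolar coat gene Cavin2 with 0.89, and the collagen receptor kinase Ddr2 with 0.88. These r values describe 26 lines that share culture conditions and one normalisation, and lines of one family are not independent. Of the other members, Rara and Rarb had r = 0.57 each with Nr2f1, and Rxra had r = -0.51.

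Nr2f2, the close relative of Nr2f1, had a standard deviation of 0.51 over the 26 lines, which 47.2% of the genes tested exceeded. It was 7.58 in C5N, 8.40 in NK and 8.44 in P6, from 7.64 in MSCP1 to 9.28 in B9 in the non-spindle lines (median 8.64) and from 7.90 in D3 to 9.40 in CarC in the spindle lines (median 8.70). All 3 groups overlapped. The spindle minus non-spindle difference was 0.08 (SE 0.24; limma adjusted p = 0.882), and its sign changed without MSCP1 or without CarC. Against keratinocytes the non-spindle lines differed by 0.62 (SE 0.38; adjusted p = 0.594) and the spindle lines by 0.70 (SE 0.40; adjusted p = 0.337). Its nearest genes were Camk2g (r = 0.72), Tead1 (0.71) and Parva (0.66). Another Nr2f2 probe set, also above the array median in every line, ran from 5.26 in MSCP1 to 8.25 in CarC.

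The retinoic acid receptors differed in how far they varied. Rarb was at background in most lines: 3.78 in C5N, 3.84 in NK, 4.10 in P6, and above the array median in 6 of the 26 lines. Those were CarC at 8.51, CarB at 6.85, MSN2 at 5.92, MSC11B at 5.90, H11 at 5.69 and MSC7A at 5.47. All 6 are carcinoma lines with low Cdh1, which makes 6 of 11 such lines against 0 of 11 carcinoma lines with high Cdh1 and 0 of the 4 keratinocyte and papilloma lines. The other low-Cdh1 lines A5, 2945CA, D3DP, MSC12 and D3 stayed between 4.54 and 3.52. Rarb passed the filter on low values only through those 6 lines. How common such a split is over all genes was not counted.

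The non-spindle lines ran from 3.34 to 5.90 in Rarb (median 3.71) and the spindle lines from 3.52 to 8.51 (median 5.69). The means were 4.01 ± 0.81 (SD, n = 12) and 5.57 ± 1.75 (SD, n = 7), a difference of 1.56 (SE 0.54), with limma unadjusted p = 0.00907 and adjusted p = 0.134. Of the 6 lines through which Rarb passed the filter, 4 are spindle lines, so this difference is only a description. Without CarC the difference was 1.07 and without CarB 1.34. Against keratinocytes the spindle lines were at 1.76 and the non-spindle lines at 0.20, given as a description, since both keratinocyte lines were at background and the gene was tested only because some carcinoma lines were not. Genes most like Rarb were Otulinl and Cmbl (r = 0.84 each) and Triqk (0.83).

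Rarg, the main retinoic acid receptor of epidermis, was above the array median in all 26 lines. It was 8.61 in C5N, 9.02 in NK and 9.39 in P6, 7.87 to 9.39 in the non-spindle lines (median 9.07) and 7.99 to 10.63 in the spindle lines (median 9.21). CarB at 10.63 and CarC at 10.10 were the highest, and PDV at 7.87, MSCP1 at 7.88, D3 at 7.99 and B9ras at 8.17 the lowest. The spindle minus non-spindle difference of 0.46 (SE 0.30) had a limma adjusted p of 0.399. Nudt7 (r = 0.83), Tob2 and 2610008E11Rik (r = 0.80 each) were closest to it. Rarg and Rarb had r = 0.65, the highest r between any of the 10 genes, and both were highest in CarB and CarC.

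Rara was also above the array median in every line, with a narrow range. It was 5.68 in C5N, 6.36 in NK and 5.80 in P6, 5.24 to 7.0 in the non-spindle lines (median 6.07) and 6.20 to 6.60 in the spindle lines (median 6.44). The 3 highest lines were MSC7A at 7.0, MSC11B at 6.95 and MSC12 at 6.94. The low-Cdh1 carcinoma lines held 6.20 to 7.0 and the high-Cdh1 ones 5.24 to 6.4, which overlap. Between spindle and non-spindle lines the difference was 0.19 (SE 0.20; limma adjusted p = 0.615). Agpat4 (r = 0.81), Copz2 and Dync2li1 (r = 0.80 each) were closest.

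Rxra, the shared partner of these receptors, was highest in P6 at 8.98 and in C5N at 8.28, with NK at 7.70. The non-spindle lines held 6.79 to 8.09 (median 7.39) and the spindle lines 6.62 to 7.69 (median 7.28), so that all spindle lines lay below NK, the nearest being H11 at 7.69. The mean of the spindle lines was 0.66 below the keratinocyte mean (SE 0.29), with limma unadjusted p = 0.0362 and adjusted p = 0.205. For the non-spindle lines the mean was 0.56 below it (SE 0.28; adjusted p = 0.443). Another Rxra probe set, also above the array median in every line, correlated with the one used by only r = 0.30, so the pattern rests on 1 probe set. Bace2, Mrtfb and Pdzk1ip1 (r = 0.76, 0.75 and 0.75) were closest.

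**Figure D3:**
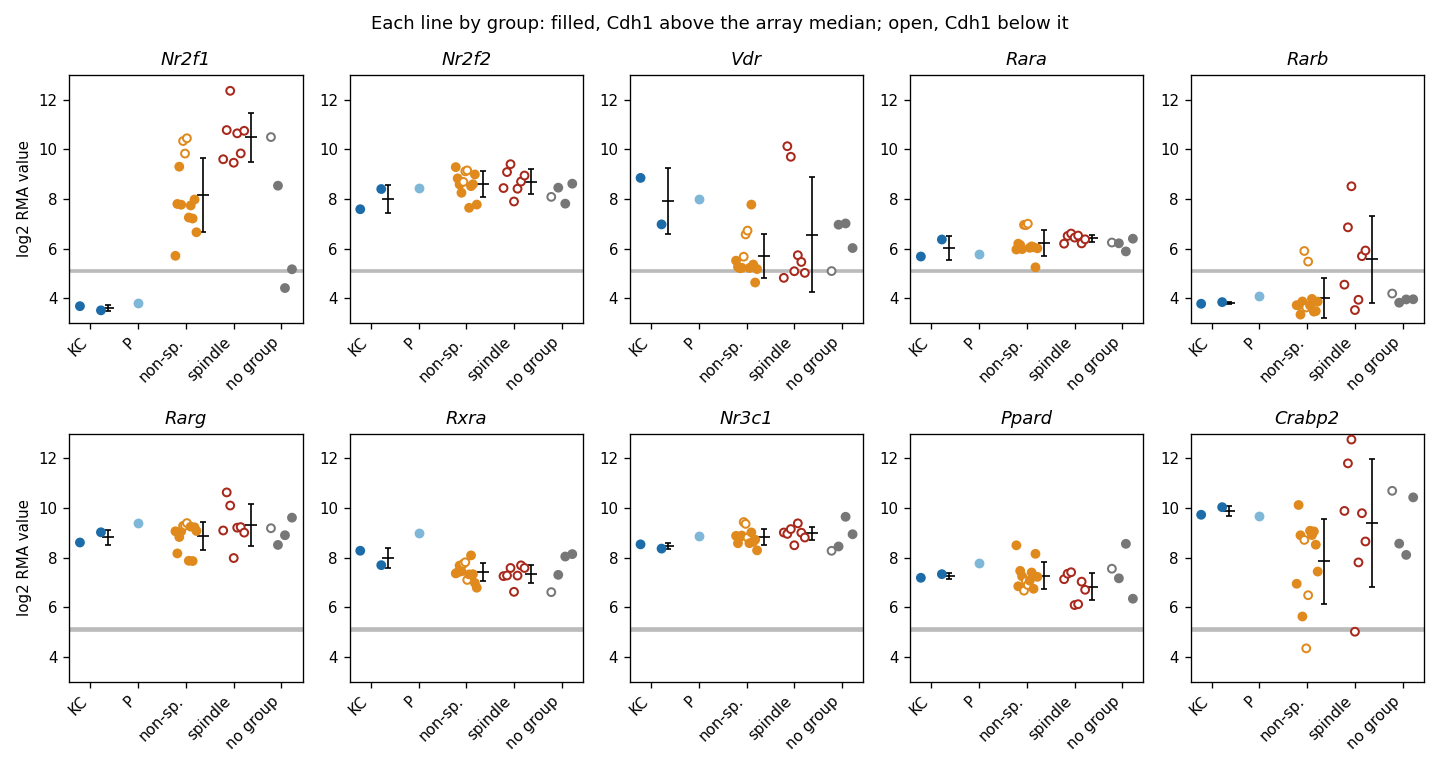
Log2 RMA value of each of the 10 genes (panels) by group (KC keratinocyte, P papilloma, non-sp. non-spindle carcinoma), with 1 point per line, filled where Cdh1 is above the array median and open where it is below; bars give mean ± SD and the grey band the range of array medians. For Nr2f1 all open points lie above all filled ones, and for Rarb every point above the band is open.

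Crabp2, which hands retinoic acid to its receptors, ranged over 8.41 on the log2 scale, from 4.35 in MSC12 to 12.76 in CarC. The keratinocyte lines were at 9.73 (C5N) and 10.04 (NK) and P6 at 9.69. The non-spindle lines ran from 4.35 through a median of 8.62 to 10.12 in B9ras, and the spindle lines from 5.02 in D3 through 9.79 to 12.76. Low values came in lines of both groups: MSC12, D3 at 5.02, E4 at 5.63, MSC7A at 6.49 and B9 at 6.95. The spindle mean was 1.54 above the non-spindle mean (SE 0.90; limma adjusted p = 0.335), and 0.98 above it without CarC. Against keratinocytes the non-spindle lines were at -2.03 (SE 1.44; adjusted p = 0.673) and the spindle lines at -0.49 (SE 1.52; adjusted p = 0.892), where the sign turned to 0.23 without D3. Cdh1 status did not separate it: the low set held 4.35 to 12.76 and the high set 5.63 to 10.43. Casp1 (r = 0.70), Catsperg1 and A330001L22Rik (r = 0.69 each) were closest.

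Vdr was high in the lines that were not carcinoma and in a few that were. It was 8.85 in C5N, 6.97 in NK and 8.0 in P6, and 7.01 in the keratinocyte line with conflicting labels. The non-spindle lines ran from 4.63 in PDVC57 through a median of 5.31 to 7.77 in MSCP5, and the spindle lines from 4.82 in A5 through 5.46 to 10.12 in CarB. CarB and CarC, at 10.12 and 9.70, lay above both keratinocyte lines, while the other 5 spindle lines lay between 4.82 and 5.73. Against keratinocytes the non-spindle lines were at -2.22 (SE 1.11; limma adjusted p = 0.451) and the spindle lines at -1.35 (SE 1.17; adjusted p = 0.554). Spindle and non-spindle lines differed by 0.87 (SE 0.69; adjusted p = 0.491), which fell to 0.28 without CarB and to 0.35 without CarC. The second Vdr probe set followed the first with r = 0.98. Cebpd (r = 0.79), Hsdl2 and Heg1 (r = 0.78 each) were closest.

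On the probe sets used, Nr3c1 had the smallest spread of the 10 genes, with a standard deviation of 0.36 over the 26 lines. This was exceeded by 72.1% of the genes tested. Nr3c1 was 8.54 in C5N, 8.37 in NK and 8.86 in P6. The non-spindle lines held 8.30 to 9.44 (median 8.82) and the spindle lines 8.5 to 9.38 (median 9.01). The highest value, 9.65, came from the keratinocyte line with conflicting labels. The spindle minus keratinocyte difference was 0.52 (SE 0.25), with limma unadjusted p = 0.0451 and adjusted p = 0.229. For non-spindle minus keratinocyte it was 0.39 (SE 0.23; adjusted p = 0.585), and for spindle minus non-spindle 0.14 (SE 0.15; adjusted p = 0.621). Pml (r = 0.71), Brox (0.70) and Insyn2a (0.69) were closest. The small spread rests on 1 of 6 Nr3c1 probe sets. Another, also above the array median in every line, ran from 5.66 in B9 to 7.91 in D3DP.

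Ppard was 7.19 in C5N, 7.34 in NK and 7.80 in P6, 6.67 to 8.5 in the non-spindle lines (median 7.15) and 6.09 to 7.41 in the spindle lines (median 7.03). D3 at 6.09 and D3DP at 6.13 were the lowest lines, and B9 at 8.5 and the keratinocyte line with conflicting labels at 8.56 the highest. The spindle mean was 0.44 below the non-spindle mean (SE 0.25; limma adjusted p = 0.319). The second probe set of Ppard correlated with the one used by r = 0.07 and stayed near the array median. Tsks and Arhgef1 (r = 0.76 each) and Atg9b (0.74) were closest.

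Of the 10 genes, all of which passed the filter on low values, limma called 0 between spindle and non-spindle lines, where 0.0633% of the 12641 genes tested were called (8 genes). At an unadjusted p under 0.05 the count was 2 of the 10, Nr2f1 and Rarb, beside 2611 of all genes (20.7%). Nr2f1 was picked by values that include these carcinoma lines. Rarb passed the filter only through 6 carcinoma lines, 4 of them spindle. Their place in this count, and in the median below, is therefore only a description. Of the 9 genes without Nr2f1, limma called 0 between non-spindle and keratinocyte lines, where 2.02% of all genes were called, and none had an unadjusted p under 0.05, beside 1516 of all genes. Of the same 9, limma called 0 between spindle and keratinocyte lines, where 5.35% were called, and 2 (Rxra and Nr3c1) had an unadjusted p under 0.05, beside 2612 of all genes (20.7%). Both keratinocyte comparisons use the same 2 control lines. Rarb was counted among these 9, in the medians below too, although its differences from keratinocytes are only a description. It had no unadjusted p under 0.05 in either keratinocyte comparison. The median log2 difference was 0.32 over the 10 genes for spindle minus non-spindle, beside 0.04 over all genes tested. It was 0.05 and 0.39 over the 9 genes against keratinocytes for non-spindle and spindle lines, beside 0.02 and 0.04 over all genes.

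**Figure D4:**
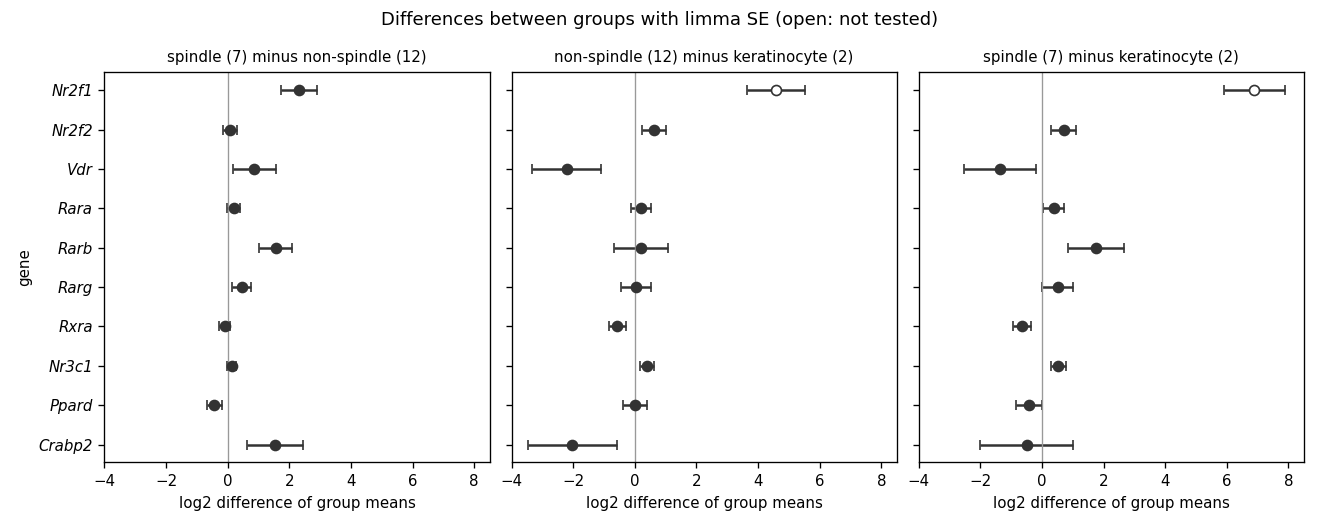
Log2 difference of group means for each of the 10 genes with the limma standard error, in 3 comparisons with the number of lines in brackets; open points were not tested. Nr2f1 is at 2.32, 4.57 and 6.89, and among the tested genes no adjusted p is below 0.05. Rarb is drawn as tested, but its differences are only a description.

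Within the non-spindle lines, the 6 from Spretus crosses were set against the other 6. Limma called 0 of the 10 genes and 0% of all genes tested. An unadjusted p under 0.05 was found for 1383 of all genes (10.9%) and for 2 of the 10. Those were Vdr, 0.99 higher in the Spretus-cross lines (SE 0.40; adjusted p = 0.431), and Rara, 0.57 higher (SE 0.24; adjusted p = 0.439). Vdr was 5.17 to 7.77 in the Spretus-cross lines and 4.63 to 5.51 in the others. Rara was 6.94 to 7.0 in the Spretus-cross lines with low Cdh1, MSC12, MSC11B and MSC7A. In the other Spretus-cross lines Rara was 6.01 to 6.09, and in the lines without a stated cross 5.24 to 6.20. Rarb was 0.83 higher (SE 0.39; adjusted p = 0.458) and Nr2f1 1.08 higher (SE 0.77; adjusted p = 0.601). The 3 non-spindle lines with low Cdh1 are all from Spretus crosses, and without them the Nr2f1 difference was -0.41. Cross and Cdh1 status were therefore unevenly mixed in this comparison.

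Genes around the receptors were taken from lists of retinoid metabolism, retinoic acid responses, vitamin D, glucocorticoid and PPAR targets, coregulators and other nuclear receptors. In retinoid transport and metabolism, 14 of 18 measured genes were tested. Sdr16c5, an epidermal retinol dehydrogenase, was 6.27 in C5N, 5.70 in NK and 5.12 in P6, against 2.99 to 4.45 in the non-spindle lines and 3.18 to 3.33 in the spindle lines. The keratinocyte and papilloma values did not overlap with those of the carcinoma lines of these groups, while the spindle range lay within the non-spindle range. The keratinocyte line with conflicting labels, at 4.06, lay within the non-spindle range, so the separation does not hold with that line included. How common such a separation is over all genes was not counted. The difference from keratinocytes was -2.67 in non-spindle and -2.75 in spindle lines. It is given as a description, because the gene passed the filter on low values only through C5N and NK, the group where it is high. All carcinoma lines of these groups were below the array median, so the fold is compressed at the low end.

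Between spindle and keratinocyte lines Cyp26b1 and Rdh10 were called lower. Cyp26b1, which degrades retinoic acid, was 8.38 in C5N, 9.49 in NK, and 5.0 to 6.84 in the spindle lines, a difference of -3.33 (SE 0.69; limma adjusted p = 0.008). Without NK the adjusted p was 0.158. Rdh10, which oxidises retinol to retinal, was 11.67 in C5N, 10.69 in NK and 8.63 to 9.96 in the spindle lines, a difference of -1.85 (SE 0.52; adjusted p = 0.043). The Rdh10 call was lost in 12 of 29 other settings, with an adjusted p of 0.355 without C5N and 0.0982 without NK. The alcohol dehydrogenase Adh1 was at background in C5N (4.15) and NK (4.21) and passed the filter only through the carcinoma lines CarB (5.18), CarC (5.31), 2945CA (6.28) and MSCb1 (6.75). Its spindle minus keratinocyte difference of 0.72 is a description, and without that filter its limma adjusted p was 0.0507. With Sdr16c5 and Adh1 set aside, limma called none of the remaining genes in non-spindle minus keratinocyte, where 2.02% of all genes were called. In spindle minus keratinocyte, where 5.35% were called, it called 2 of them. The median difference over all 14, with Sdr16c5 and Adh1 included, was -0.14 and -0.01, beside 0.02 and 0.04 over all genes. Of 9 tested retinoic acid responsive genes 1 was called, again Cyp26b1 in spindle minus keratinocyte.

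**Figure D5:**
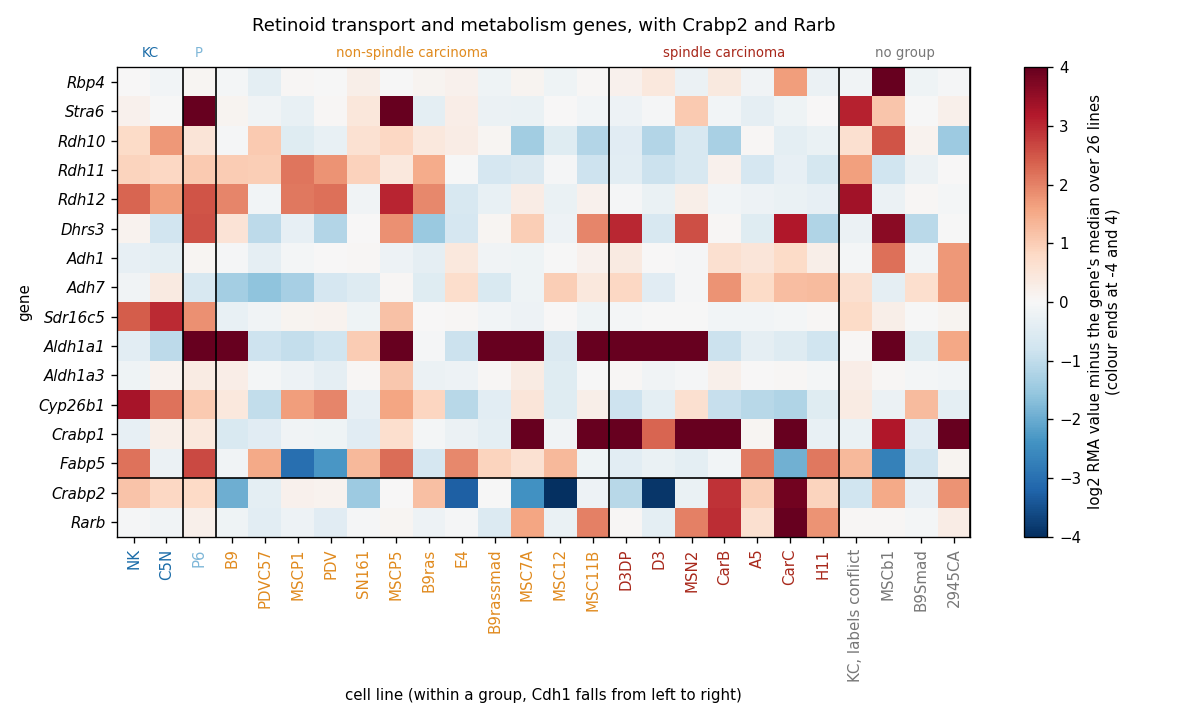
Heat map of the retinoid transport and metabolism genes that were tested, with Crabp2 and Rarb below the line, as the difference of each log2 RMA value from the gene's median over the 26 lines (colours end at -4 and 4; KC keratinocyte, P papilloma; within a group, Cdh1 falls from left to right). Sdr16c5 and Cyp26b1 are reddest in NK and C5N, and Rarb is highest in CarB and CarC.

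Of 5 tested genes of vitamin D metabolism and response, limma called Hr in non-spindle minus keratinocyte, where 2.02% of all genes were called, and Hr and Cd14 in spindle minus keratinocyte, where 5.35% were. Hr, the hairless corepressor that binds the vitamin D receptor, was 8.76 in C5N, 8.74 in NK and 8.83 in P6, 4.74 to 8.14 in the non-spindle lines and 4.85 to 5.99 in the spindle lines. The difference from keratinocytes was -2.62 (SE 0.66; limma adjusted p = 0.0433) in non-spindle lines, a call lost in 18 of 29 other settings. In spindle lines the difference was -3.51 (SE 0.70; adjusted p = 0.00606), with an adjusted p of 0.0664 without C5N and 0.0626 without NK. Cd14, a co-receptor for bacterial lipid induced by vitamin D, was 4.59 in C5N, 6.16 in NK and 7.75 to 8.90 in the spindle lines, a difference of 2.95 (SE 0.77; adjusted p = 0.0296). Without C5N its adjusted p was 0.308 and without NK 0.0633.

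Of 14 tested coregulators, 1 was called in non-spindle minus keratinocyte (2.02% of all genes) and 2 in spindle minus keratinocyte (5.35%). Ncoa3 was lower in non-spindle than in keratinocyte lines, with a difference of -0.76 (SE 0.18; limma adjusted p = 0.0262). In spindle lines the coactivator Ncoa1 was 1.16 higher than in keratinocytes (SE 0.33; adjusted p = 0.0425) and the Mediator subunit Med1 was at -0.67 (SE 0.18; adjusted p = 0.0306). Without C5N the adjusted p rose to 0.544 for Ncoa3, 0.112 for Ncoa1 and 0.0602 for Med1, and without NK it was 0.406 for Ncoa1 and 0.409 for Med1. With the probe sets of a gene averaged it was 0.116 for Ncoa1 and 0.182 for Med1. These 3 calls were lost in 4, 11 and 6 of 29 other settings. Limma called 0 of 22 other nuclear receptors, 0 of 15 glucocorticoid genes and 0 of 7 PPAR targets in any of the 4 comparisons. At an unadjusted p under 0.05 the counts in spindle minus non-spindle were 4, 2 and 0, in non-spindle minus keratinocyte 0, 1 and 1, in spindle minus keratinocyte 0, 2 and 1, and in the Spretus comparison 2, 2 and 3. Over all genes those counts were 2611 (20.7%), 1516, 2612 (20.7%) and 1383 (10.9%) of 12641. No gene of any of these 7 lists was called between spindle and non-spindle lines. The loss of keratinocyte markers and the higher mesenchymal markers given above moved with the same groups as these calls, and their part in them was not tested.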

How the data were processed

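Total RNA of 26 lines was labelled and hybridised, per the labels' protocols. The authors deposited log2 values made with RMA, per the submitters' processing notes. This was done with software and probe definitions not given in the sources used here. RMA gives all arrays near-equal distributions, which hides shifts in the amount of RNA of a cell. The table held 45037 probe sets: 34945 had 1 gene symbol, 932 had several and 9160 had none. Of the single-gene probe sets, 34741 matched a current gene ID, giving 18193 genes. The 12641 genes above the array median on 2 or more arrays were tested with limma 3.58.1 (R 4.3.3; lmFit and eBayes, 1 model of 3 groups, 21 lines; the Spretus comparison in 12 lines). Calls had a Benjamini-Hochberg adjusted p under 0.05. The fit was tested on simulated data.

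Members and gene lists were chosen with earlier results of these data known. The text names every member, list genes that were called (at most 4 per direction), Cdh1, and the 3 genes most correlated with each member. Lines with missing or conflicting labels were left out of the tests. Promoter windows came from RefSeq. Some genes of the lists are not reported here. Alternatives covered probe sets, the filter, the grouping, name families, the variance model and each line left out. The number of arrays limits the precision.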

Additional observations from a re-analysis of the deposited data

Results flagged for a closer look

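In 4 of 30 gene and group pairs looked at, 1 line stood far from the others of its group, by its gap to the nearest line over the group's range. For independent normal values this rule picks about 1 in 20. Lines of one name family and correlated genes are not independent, so no excess over chance can be read from the count. Vdr was 4.63 in PDVC57, against 5.21 in the nearest of the other non-spindle lines without a stated Spretus cross. Rara was 5.24 in the same line, against 5.96. Rarg was 7.88 in MSCP1, against 9.08 in the nearest Spretus-cross line. Rxra was 6.62 in D3, against 7.26 in the nearest spindle line. No cause of these values was tested.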

How the results depend on the processing

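Of 1110 recomputed differences of the 10 genes, 1070 kept their direction and side of the threshold, 6 passed it and 34 changed sign, none of the latter at a called value. Nr2f1 against keratinocytes had no threshold, and its values counted as kept when they moved by less than 1 residual SD. Between spindle and non-spindle lines the 8 called genes became 5 with probe sets averaged, 3 without the filter, 0 with conflicting lines placed by label, 3 with 2945CA and MSCb1 as non-spindle, 2 with name family as a random block and 1954 (1058 higher, 896 lower) without MSC12, MSC11B and MSC7A, 3 lines set apart by their known Cdh1 values. In that last setting 3 members were called: Nr2f1 at 3.0, Rara at 0.44 and Rarb at 1.89. The 3 lines removed lay within the spindle range of Nr2f1, were the highest in Rara and included the only non-spindle lines with Rarb above the array median, so these calls follow from which lines were removed and support nothing. Between non-spindle and keratinocyte lines 255 became 163 with conflicting lines by label and 111 in a fit of only those groups, and in spindle minus keratinocyte 676 became 1213 in such a fit. Leaving out 1 line at a time gave 2 to 471 called genes in spindle minus non-spindle (179 without MSC12, 471 without MSC11B, 183 without MSC7A), 147 to 352 in non-spindle minus keratinocyte (lowest without C5N), 258 to 765 in spindle minus keratinocyte (258 without C5N, 284 without NK) and 0 to 163 in the Spretus comparison (163 without MSCP1). Members called were 0 to 1 in the first of these (Nr2f1) and 0 in the others.

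Signs changed for small differences. With another probe set, spindle minus non-spindle was -0.14 for Nr2f2 and 0.015 for Rxra. Non-spindle minus keratinocyte was then -0.016 for Nr2f2, -0.17 for Rarg, 0.13 for Rxra, -0.044 for Nr3c1 and -0.10 for Ppard. Spindle minus keratinocyte was 0.14 for Rxra and -0.010 for Nr3c1, and the Spretus comparison 0.066 for Nr2f2 and 0.075 for Ppard. The Rxra probe set, and that of Nr2f2 in non-spindle minus keratinocyte, were above the array median in 0 of 26 lines. The Nr3c1 probe set was above it in 8 lines. That of Ppard, and that of Nr2f2 in spindle minus non-spindle, were above it in 18. That of Rarg, and that of Nr2f2 in the Spretus comparison, were above it in all 26. Non-spindle minus keratinocyte was -0.061 for Rarg and -0.045 for Ppard with probe sets averaged, -0.012 for Nr3c1 and -0.42 for Ppard with conflicting lines by label, -0.034 for Ppard with 2945CA and MSCb1 as non-spindle, and -0.055 for Rara, -0.13 for Rarb and -0.10 for Rarg without MSC12, MSC11B and MSC7A. Without those lines the Spretus comparison was -0.41 for Nr2f1, -0.13 for Nr3c1 and 0.28 for Crabp2. With 1 line left out, ranges that crossed 0 were, for spindle minus non-spindle, -0.16 to 0.021 for Rxra (positive without D3) and -0.038 to 0.21 for Nr2f2 (negative without MSCP1 or CarC). For non-spindle minus keratinocyte they were -0.10 to 0.085 for Ppard (negative without C5N, B9rassmad, PDVC57 or B9), -0.15 to 0.54 for Rara (negative without C5N) and -0.16 to 0.25 for Rarg (negative without C5N or MSC7A). For spindle minus keratinocyte the range was -1.06 to 0.23 for Crabp2 (positive without D3), and in the Spretus comparison -0.013 to 0.25 for Rxra (negative without MSCP5). The cause of these changes was not tested. The settings for the list genes were added after seeing the data. The conflicting-label and single-pair settings could not apply to the Spretus comparison and were not run there. No paired analysis was possible because replicate numbers follow only the order of deposition. Values near the array median limit Rarb, Sdr16c5 and Adh1.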

Other observations

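The following retinoid genes were chosen after their values were seen. Between spindle and non-spindle lines limma called none of the first 4: the adjusted p was 0.144 for Crabp1 (difference 2.95), 0.225 for Rdh12 (-0.99), 0.999 for Aldh1a1 (0.0038) and 0.0965 for Tgm2 (3.16). Crabp1, the sister of Crabp2 that binds retinoic acid in the cytoplasm, was above the array median in 8 of 11 carcinoma lines with low Cdh1, in 1 of 11 with high Cdh1 and in 0 of the 4 keratinocyte and papilloma lines. Its values were 3.91 to 10.79, 3.57 to 7.41 and 3.87 to 4.62 in those sets. H11 had 3.91 and MSN2 10.79, so the low-Cdh1 lines span nearly the whole range. The retinol dehydrogenase Rdh12 had the other order: 0 of 11, 5 of 11 and 4 of 4 lines were above the array median, with values of 4.12 to 4.74, 3.81 to 7.49 and 6.14 to 7.80. How common such splits by Cdh1 status are over all genes was not counted, so they are not shown to be particular to these genes. Aldh1a1, which makes retinoic acid from retinal, ran from 3.47 to 12.62 in the low-Cdh1 set and from 3.41 to 12.005 (MSCP5) in the high set, and 6 and 5 of 11 lines were above the array median. Tgm2, a transglutaminase induced by retinoic acid, was 6.79 to 12.52 in the low set and 3.72 to 11.60 in the high set, with CarC at 12.52 and MSCb1 at 11.60.

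MSCb1 combined 10.50 for the retinaldehyde reductase Dhrs3, 12.45 for Rdh10, 10.16 for Aldh1a1 and 11.60 for Tgm2 with 3.96 for Rarb, which was below the array median. CarC combined 12.52 for Tgm2, 10.08 for Dhrs3 and 12.76 for Crabp2 with 8.51 for Rarb and 3.82 for Aldh1a1. The receptor for retinol-carrying protein, Stra6, was 10.48 in MSCP5, 9.89 in P6 and 8.10 in the keratinocyte line with conflicting labels, and at most 6.12 in the other lines.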
